A study of Homo sapiens with 14 samples.

Results

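RNA-seq was read for 10 genes of human chromosome 12q14-15 in 14 neuroblastoma cell lines, which derive from a childhood tumour of the sympathetic nervous system. The genes were CDK4, TSPAN31, OS9, MDM2, NUP107, RAP1B, CPSF6, YEATS4, FRS2 and CCT2, which are 10 of 20049 genes in the count table. They were chosen because earlier readings of the same table had shown them high in the lines LS and NGP, so the levels of LS and NGP are given as a description and were not tested. LS and NGP stand beside 12 other lines: IMR32, SK-N-SH, CLB-GA, SK-N-FI, NBL-S, SK-N-DZ, Lan-6, SH-SY5Y, GI-ME-N, SK-N-AS, IMR5-75 and SK-N-BE(2)C. All lines were cultured in medium with serum, no treatment is named in the labels, and each line gave 1 library of total RNA. No line had a replicate, so the spread between lines is the only spread these data hold, and neighbours in the order of a gene's levels cannot be separated by replicate error. IMR5-75 is a subclone of IMR32 and SH-SY5Y a subclone of SK-N-SH, so the 12 other lines hold 2 pairs that share an origin.

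CDK4 encodes the kinase that, bound to D-type cyclins, phosphorylates the retinoblastoma protein and so frees E2F factors to drive entry into S phase. MDM2 encodes the ubiquitin ligase that binds p53 and sends it to degradation, and MDM2 is itself switched on by p53. The 2 genes lie in neighbouring bands of the long arm of chromosome 12, and amplification of this region of DNA is known from sarcomas, gliomas and some neuroblastomas. DNA copy number was not analysed here.

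Library totals ran from 35856642 estimated counts in Lan-6 to 58644013 in LS, so counting error was small for all 10 genes. Levels are given as CPM, counts scaled to the size of the library with TMM factors, and a log2 ratio is the log2 CPM of a line minus the median log2 CPM of the 12 other lines. GI-ME-N and Lan-6 stood apart, with long transcripts low (rank correlation with transcript length across genes -0.43 and -0.46). LS lay at the opposite end, with the highest correlation with length of the 14 lines (0.23) and the lowest with GC content (-0.36, against 0.67 in Lan-6 and 0.30 in GI-ME-N). Values after each library's trend on GC content and transcript length was removed are given beside some of the results that rest on these lines. Among neuroblastoma markers, HAND2, a transcription factor of the sympathetic lineage, stood at 616 CPM in LS and 737 CPM in NGP, while DBH, the enzyme that makes noradrenaline, stood at 1.1 CPM in LS and 2.15 CPM in NGP. Markers of the mesenchymal state summed to 1929 CPM in LS and 266 CPM in NGP, beside 108 to 29345 CPM in the other lines. In bulk RNA, fewer cells of a type and less RNA per cell cannot be told apart. Leukocyte markers summed to 2.26 CPM in each of LS and NGP, against a median of 2.28 CPM in the other lines.

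The 10 genes together took 4.59% of the LS library and 1.15% of the NGP library, against 0.108% (SK-N-BE(2)C) to 0.203% (SK-N-FI) of the others. In LS all 10 genes lay at least 2-fold above the median of the 12 other lines, as did 13.6% of 17501 detected genes. All 10 also lay above the highest of the 12, and 4.47% of detected genes passed both rules. In NGP 9 of the 10 passed the 2-fold rule and the same 9 passed both, against 16.0% and 5.49% of detected genes. Since the genes were chosen on this comparison, nothing is read from these counts. OS9 was the gene that NGP did not share.

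CDK4 lies at chr12:57747727-57756013 on the minus strand (GRCh38, GENCODE 29). It had 1206 CPM in LS and 1608 CPM in NGP, beside 109 CPM (IMR5-75), a median of 227 CPM and 517 CPM (Lan-6) in the other lines. LS and NGP stood above every other line, by 5.32-fold and 7.09-fold over the median. With the GC and length trend removed Lan-6 had 286 CPM, and the highest of the others were GI-ME-N and CLB-GA at 310 CPM each. Its RefSeq promoter (GRCh38.p14, chr12:57752261-57752560, minus strand, 250 bases before the start and 50 from it) is shown because it held 3 E-boxes, the letters CACGTG that read the same on both strands and that MYC family proteins are known to bind. The E-boxes are in capitals.
CDK4: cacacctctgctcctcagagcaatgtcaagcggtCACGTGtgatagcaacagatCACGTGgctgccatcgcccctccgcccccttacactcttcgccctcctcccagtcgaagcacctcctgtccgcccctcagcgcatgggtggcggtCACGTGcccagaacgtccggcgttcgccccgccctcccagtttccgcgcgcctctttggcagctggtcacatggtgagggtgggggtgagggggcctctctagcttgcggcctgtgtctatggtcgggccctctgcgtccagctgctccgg
Of 35116 promoters of this length, 7.26% held at least 1 E-box, and CDK4 was the 1 gene of the 10 with any.

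TSPAN31, a tetraspanin membrane protein, lies next to CDK4 at chr12:57738013-57750211 on the plus strand. It had 195 CPM in LS and 323 CPM in NGP, beside 18.6 CPM (SK-N-BE(2)C), a median of 28.2 CPM and 68.2 CPM (Lan-6) in the other lines. Both lines exceeded all 12 others. TSPAN31 and CDK4 share 1369 exonic bases on opposite strands, and the sources do not say that the counting used strand, so reads from the shared bases cannot be told apart. OS9, a lectin of the endoplasmic reticulum that marks misfolded glycoproteins for degradation, lies at chr12:57693955-57721557. It had 594 CPM in LS and 102 CPM in NGP, beside 75.9 CPM (NBL-S), a median of 124 CPM and 380 CPM (GI-ME-N) in the other lines. LS stood above every other line, whereas NGP ranked 11th of 14 with a log2 ratio of -0.28.

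MDM2 lies at chr12:68808176-68850686 on the plus strand. It had 4090 CPM in LS (95% exact Poisson interval 4074 to 4107, counting error only) and 922 CPM in NGP (912 to 932), against 71.1 CPM (Lan-6), a median of 107 CPM and 318 CPM (SK-N-SH) in the other lines. LS was 38.3-fold and NGP 8.64-fold above the median, and neither overlapped the other 12. RefSeq gives MDM2 4 promoter entries in 2 neighbouring pairs. The first entry of the downstream pair (GRCh38.p14, chr12:68808767-68809066, plus strand) is shown because it held 2 matches to the 20-base p53 site, in capitals, with 2 and 3 mismatches to the consensus.
MDM2: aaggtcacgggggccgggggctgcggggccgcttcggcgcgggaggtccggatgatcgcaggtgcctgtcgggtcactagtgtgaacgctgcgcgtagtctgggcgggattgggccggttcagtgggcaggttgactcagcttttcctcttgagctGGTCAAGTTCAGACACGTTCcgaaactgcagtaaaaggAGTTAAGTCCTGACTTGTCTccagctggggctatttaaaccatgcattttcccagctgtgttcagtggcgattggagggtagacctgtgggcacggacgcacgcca
A p53 site with at most 2 mismatches stood in 0.649% of the 35116 promoters and one with at most 3 in 5.2%, both strands searched, and MDM2 was the 1 gene of the 10 with either. This search was chosen after the data were seen, and a match is a description of the letters. A search for the p53 half-site, without mismatches, found 0 in the 4 MDM2 entries and 1 in NUP107, where 6.63% of promoters held one. The pseudogene AC025423.2 lies within MDM2 exons on the same strand (439 bases), so its level (229 CPM in LS and 49.8 CPM in NGP, beside a median of 4.81 CPM) cannot be separated from that of MDM2.

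NUP107, a scaffold subunit of the nuclear pore at chr12:68686734-68745809, had 4176 CPM in LS and 1058 CPM in NGP, beside 25.8 CPM (Lan-6), a median of 132 CPM and 173 CPM (GI-ME-N) in the other lines. RAP1B, a small GTPase that acts on integrin adhesion, begins the block at chr12:68610839-68671901. It had 265 CPM in LS and 544 CPM in NGP, beside 56.5 CPM (Lan-6), a median of 92.9 CPM and 242 CPM (SK-N-SH) in the other lines. RAP1B was thus the gene with the smallest LS log2 ratio, 1.52, and the margin of LS over the highest other line was 1.1-fold. With the GC and length trend removed, LS (220 CPM) fell below GI-ME-N (345 CPM) and SK-N-SH (306 CPM), while NGP (469 CPM) stayed above them.

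CPSF6, a subunit of the factor that sets where messenger RNAs are cut and polyadenylated, lies at chr12:69239537-69274358. It had 15485 CPM in LS and 2336 CPM in NGP, beside 73.1 CPM (Lan-6), a median of 206 CPM and 405 CPM (SK-N-DZ) in the other lines. YEATS4, a histone acetyl-lysine reader of the TIP60 and SRCAP complexes at chr12:69359703-69390796, had 2383 CPM in LS and 347 CPM in NGP, beside 10.6 CPM (Lan-6), a median of 25.0 CPM and 37.4 CPM (SK-N-FI). In both genes LS and NGP lay apart from all 12 other lines. FRS2, the adaptor that couples fibroblast growth factor receptors to RAS signalling, lies at chr12:69470349-69579789. It had 3657 CPM in LS and 342 CPM in NGP, beside 15.2 CPM (Lan-6), a median of 38.1 CPM and 69.0 CPM (SK-N-FI) among the others. CCT2, a subunit of the chaperonin that folds actin and tubulin, lies at chr12:69585334-69601570 and had 14131 CPM in LS and 3556 CPM in NGP, beside 190 CPM (SK-N-BE(2)C), a median of 328 CPM and 652 CPM (GI-ME-N). YEATS4 and FRS2 had the largest LS log2 ratios of the 10, 6.57 and 6.58, and YEATS4 the largest in NGP, 3.80. LS had the highest level of all 14 lines for 7 genes, and NGP for CDK4, TSPAN31 and RAP1B.

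**Figure D1:**
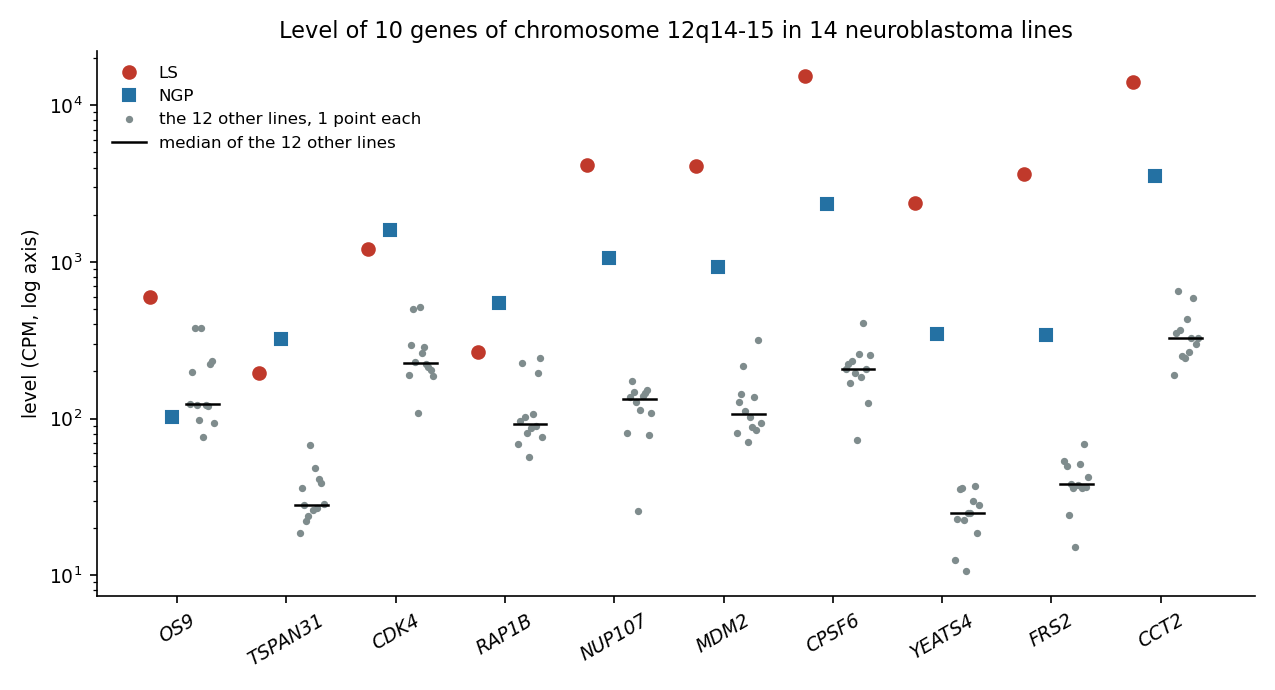
Level of each gene in CPM on a log axis, genes in order of position. Circles are LS, squares NGP and small points the 12 other lines with their median as a bar. LS and NGP lie above all small points except for OS9, where NGP (102 CPM) lies among them.

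Within 5 Mb of the 10 genes, runs of called genes formed 2 blocks, around CDK4 and around MDM2. The distance from ATP23, near the end of the first block, to RAP1B, where the second begins, was 10.7 Mb, and the calls ran some way into it. A gene was called higher here when it passed both rules, at least 2-fold over the median and above the highest other line. Of 208 detected genes within 5 Mb of the 10 genes, 52 were called in LS and 41 in NGP, and 28 in both (53.8% of the LS calls and 68.3% of the NGP calls), where the same rule called 4.47% of all detected genes in LS and 5.49% in NGP. These counts hold the 10 genes, which were picked for being high, and without them 42 of 198 were called in LS and 32 in NGP. The stretches named here and below begin and end at genes called in LS or in both lines. Their shares of called genes therefore depend on where the ends were put, and nothing is read from them. AGAP2, just before TSPAN31, was not called in LS, and LRIG3, just after ATP23, was called in both. From TSPAN31 to ATP23, 10 of 11 detected genes were called in LS and 11 of 11 in NGP, with median log2 ratios of 2.80 and 3.0, and of 3.03 and 3.0 over the 9 that are not among the 10 genes (8 called in LS and 9 in NGP). From RAP1B to CCT2, 12 of 13 were called in each line, but 7 of the 13 are genes picked for being high. Of the other 6 there, 5 were called in each line, but not all of these stand apart from the picked genes. AC025423.2 lies within MDM2 exons and KRT8P39 inside NUP107, and C1GALT1P1 and LYZ were hardly read in the other lines. SLC35E3, the remaining called gene, had 888 CPM in LS and 228 CPM in NGP. In the other lines SLC35E3 had a median of 36.4 CPM and at most 75.0 CPM. Between ATP23 and RAP1B, 1 of 31 was called in LS (LRIG3) and 6 of 31 in NGP (LRIG3 and SLC16A7 among them), with medians of 0.37 and 0.41.

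The edges of the blocks differed between the lines. On the centromeric side, from ZBTB39 to OS9, 15 of 27 genes were called in LS and 3 of 27 in NGP, with median log2 ratios of 2.08 and 0.62. LRP1, a lipoprotein receptor in that stretch, stood at 932 CPM in LS and 132 CPM in NGP, beside a median of 113 CPM. AGAP2, the next gene after OS9, had the reverse order, 54.7 CPM in LS and 283 CPM in NGP, beside a median of 51.3 CPM. In NGP an unbroken run of 14 called genes went from AGAP2 to SLC16A7 (2.07 Mb). SLC16A7, a monocarboxylate transporter, had 427 CPM in NGP and 10.9 CPM in LS, against a median of 11.0 CPM. LRIG3, the gene before it, had 28.5 CPM in LS and 90.2 CPM in NGP, beside a median of 2.55 CPM. The highest other line for LRIG3 was SK-N-FI at 27.9 CPM, so its call in LS rests on a small margin. In LS the same side held a run of 6 from PIP4K2C to OS9 and a run of 9 from CYP27B1 to LRIG3. CDK4 and TSPAN31 were called in LS but lay in no run there, since their neighbours AGAP2 and MARCH9 were not called.

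On the telomeric side both lines held a run of 6 genes from RAP1B to AC025423.2 and a further run that began at CPSF6. That run held 16 genes in LS and ended at TSPAN8 (2.2 Mb), and it held 6 genes in NGP and ended at CCT2 (0.362 Mb). Beyond CCT2, RAB3IP, a regulator of vesicle transport, had 682 CPM in LS and 22.5 CPM in NGP, beside a median of 25.5 CPM. TSPAN8, a tetraspanin, had 248 CPM in LS and 0.484 CPM in NGP, beside a median of 0.347 CPM and a highest other line at 21.9 CPM. CNOT2, a subunit of the deadenylase complex, was high in both, at 3552 CPM in LS and 996 CPM in NGP, beside a median of 75.6 CPM. NGP also held a run of 3 genes from MYRFL to KCNMB4, of which MYRFL stood at 0.242 CPM. The gene before RAP1B, MDM1, was not called in either line (13.7 CPM in LS and 22.7 CPM in NGP, beside a median of 19.8 CPM), nor was LGR5 after TSPAN8 (20.9 and 24.1 CPM, against 20.2 CPM).

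Some genes in the MDM2 block are hardly read in the other lines. LYZ, which encodes the antibacterial enzyme lysozyme of myeloid and secretory cells, had 42.1 CPM in LS and 0.888 CPM in NGP, beside a median of 0.0675 CPM. MYRFL had 38.4 CPM in LS, against a median of 0.0346 CPM, and the pseudogene C1GALT1P1 had 79.3 CPM in LS and 7.88 CPM in NGP, beside 0.259 CPM. Log2 ratios of genes this low depend on the prior count and are not given. KRT8P39, a pseudogene inside NUP107, had 14.8 CPM in LS and 6.4 CPM in NGP, beside 0.354 CPM. ATP23, at the end of the CDK4 block, had 53.7 CPM in LS and 174 CPM in NGP, beside 7.65 CPM. The gene for carboxypeptidase M, between MDM2 and CPSF6, was the break between the runs in both lines, with 46.0 CPM in LS and 43.5 CPM in NGP, below the 76.7 CPM of SK-N-SH. It shares 133 exonic bases with MDM2 on the opposite strand, from which reads cannot be told apart. Elsewhere in the genome LS held 15 runs of at least 3 genes, the longest of 5, and NGP held 22, the longest of 13 genes from DENR to KMT5A on the same chromosome arm. Close before that run, NGP held runs of 9 (CAMKK2 to SETD1B), 3 (BCL7A to LRRC43) and 6 genes (AC048338.1 to KNTC1). Together with it they lay between chr12:121237691 and 123409358. Their median log2 ratios ran from 2.98 to 3.12, beside 3.07 in the NGP run from AGAP2 to SLC16A7. NGP runs of 3 from KCNC2 and from LIN7A also lay on this arm.

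**Figure D2:**
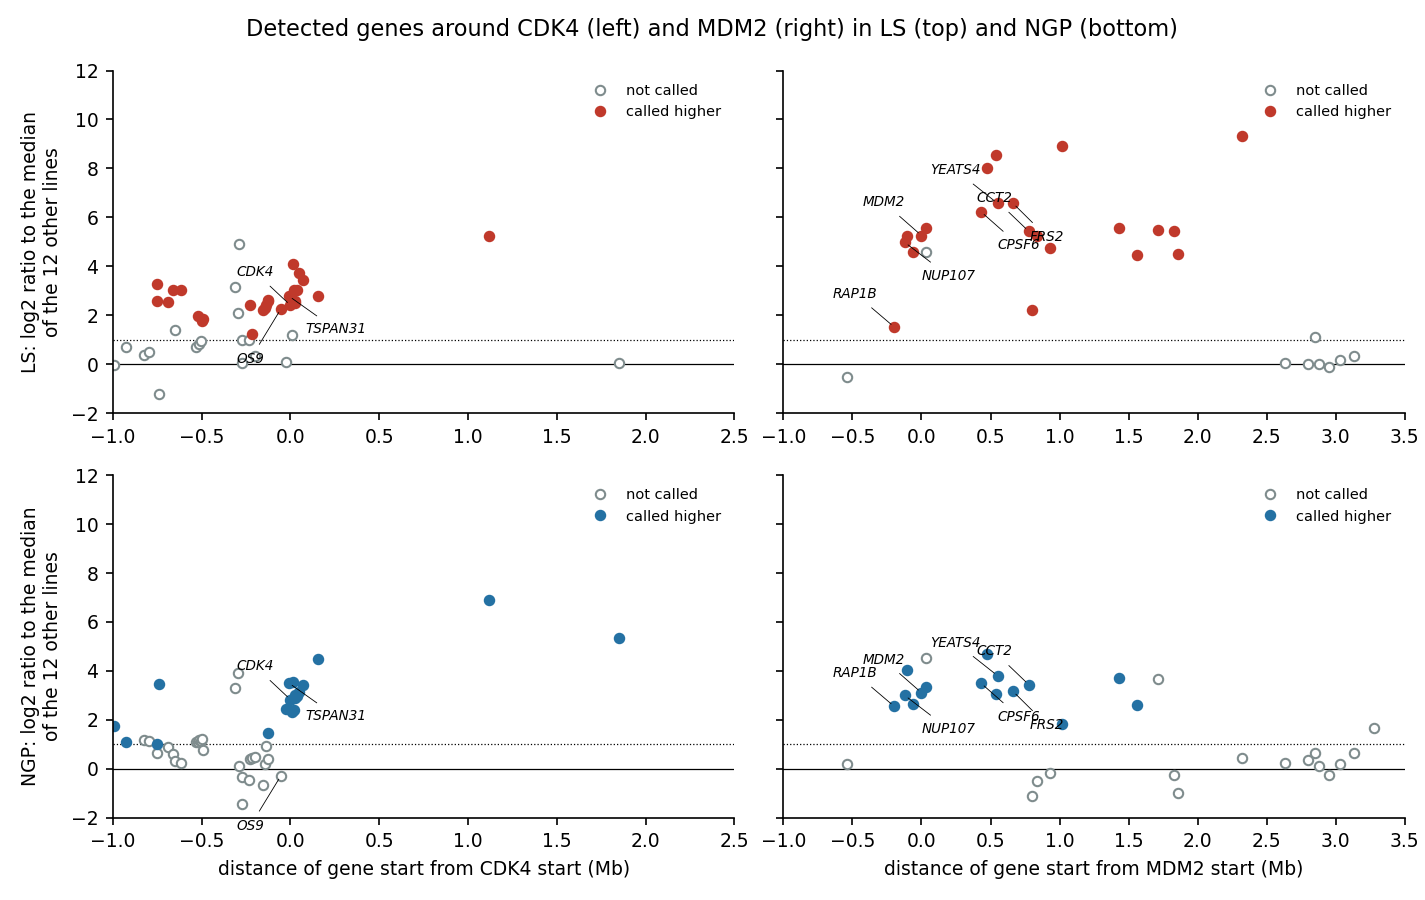
Log2 ratio to the median of the 12 other lines for each detected gene, LS above and NGP below, against distance in Mb between start coordinates, from CDK4 (left) and MDM2 (right). Filled points passed both call rules, open points did not, and the dotted line marks 2-fold. The LS block on the right reaches past 2 Mb, where NGP points lie near 0.

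Partners of the 10 products were read next, as lists chosen with earlier results known. At least 2-fold higher levels were found in 13.6% of detected genes in LS and 16.0% in NGP, and at least 2-fold lower levels in 13.1% in LS and 12.5% in NGP, so short lists hold few such genes in any case. Of the 7 other CCT chaperonin subunits, 0 were 2-fold higher or lower in LS or NGP, and the largest log2 ratio was CCT8 at 0.40 in LS and 0.46 in NGP, beside 5.43 and 3.44 for CCT2. Of 9 partners of NUP107 in the nuclear pore, 0 were 2-fold higher or lower in LS, and NUP98 was lower in NGP at -1.04. AHCTF1 had the highest LS log2 ratio of the list, 0.97, and both it (276 CPM in LS, against at most 228 CPM) and NUP133 (201 CPM in LS, against at most 147 CPM) lay above all 12 other lines. NUDT21 and CPSF7, which work with CPSF6, had log2 ratios of 0.32 and -0.21 in LS and 0.54 and -0.08 in NGP. Of 13 partners of YEATS4, RUVBL2 was lower in LS at -1.0, which became -0.65 with the GC and length trend removed, and 0 passed in NGP. BRD8, of the same list, had 161 CPM in LS, above the highest other line at 129 CPM. The medians of these 4 lists lay between -0.15 and 0.23 in both lines, beside medians of 0.02 in LS and -0.00 in NGP over all detected genes. Of 6 OS9 partners, 0 passed in LS and HSP90B1, a chaperone, was lower in NGP at -1.04. The medians of the OS9 list were -0.41 in LS and -0.59 in NGP. SYVN1, of that list, had 29.1 CPM in LS and 30.8 CPM in NGP, below the lowest other line at 32.1 CPM. DERL1 had 54.2 CPM in LS, below the lowest other line at 55.8 CPM, and 81.6 CPM in NGP. Of 6 partners of RAP1B, RAP1GAP, which switches RAP1 off, was lower in LS at 0.36 CPM, against 7.18 CPM in NGP and a median of 10.1 CPM.

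In the FRS2 pathway, 3 of 12 genes were at least 2-fold higher in LS (FGFR2, FGFR3 and the docking protein gene GAB1) and 2 lower, where 13.6% and 13.1% of detected genes were. In NGP, 3 were higher (FGFR2, FGFR3 and FGFR4) and 3 lower, where 16.0% and 12.5% were. FGFR2, a receptor that FRS2 binds, had 49.7 CPM in LS and 19.9 CPM in NGP, beside a median of 1.68 CPM and a highest other line at 33.4 CPM (NBL-S). SPRY4, a feedback inhibitor of the pathway, had 4.52 CPM in LS and 1.26 CPM in NGP, beside a median of 81.4 CPM, but SK-N-DZ stood lower still at 0.128 CPM.

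**Figure D3:**
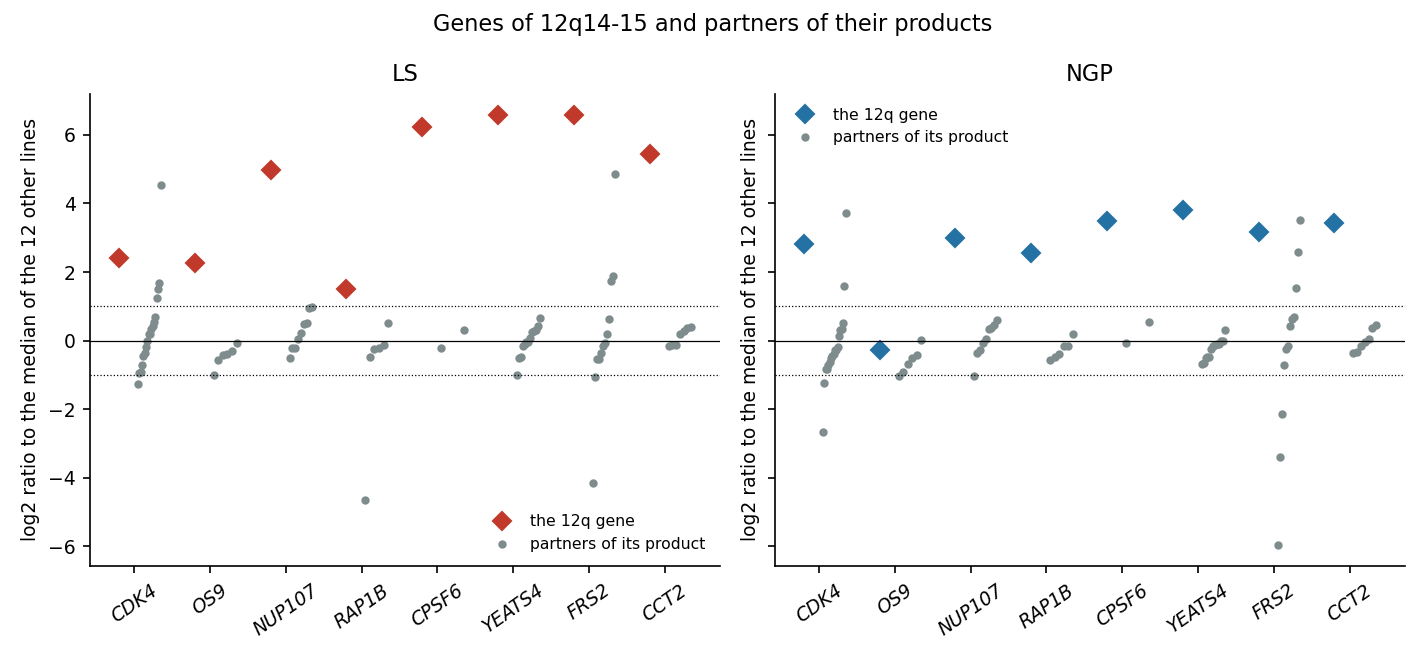
Log2 ratio to the median of the 12 other lines in LS (left) and NGP (right) for 8 of the genes (diamonds) and the detected partners of each product (points). Dotted lines mark 2-fold. The points of the CCT and cleavage factor lists lie between the dotted lines, those of the nuclear pore list reach them (AHCTF1 at 0.97 in LS, NUP98 at -1.04 in NGP), and OS9 in NGP lies at -0.28.

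CDKN2A encodes the CDK4 inhibitor p16 and the MDM2 inhibitor ARF. It had 95.5 CPM in LS and 54.9 CPM in NGP, beside a median of 4.11 CPM and a highest other line at 56.3 CPM (SK-N-AS). It was the 1 of 9 p53 regulators at least 2-fold higher in each line, and 0 were lower, where 13.6% of detected genes were higher in LS and 16.0% in NGP. Of 29 p53 target genes, 2 were higher and 5 lower in LS, and 1 was higher and 5 lower in NGP, with median log2 ratios of -0.56 and -0.36. Of all detected genes, 13.6% were higher and 13.1% lower in LS, and 16.0% and 12.5% in NGP, with medians of 0.02 and -0.0. The counts of lower p53 targets lay near those shares and the counts of higher ones lay below them, which was not tested. CDKN1A, the cell cycle inhibitor p21, had 8.91 CPM in LS, the lowest of the 14 lines, and 84.1 CPM in NGP, beside 17.3 to 981 CPM and a median of 103 CPM. GDF15, a stress cytokine, had 0.206 CPM in LS and 0.403 CPM in NGP, beside a median of 5.32 CPM. SPATA18, a mitochondrial quality control gene, had 2.16 CPM in LS and 13.9 CPM in NGP, beside a median of 0.746 CPM and a highest of 14.0 CPM.

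On the CDK4 side, 4 of 18 detected partners and G1 regulators were at least 2-fold higher and 1 lower in LS, and 2 were higher and 2 lower in NGP, where 13.6% and 13.1% of detected genes were in LS and 16.0% and 12.5% in NGP. The 4 higher in LS were CDKN2A, its neighbour CDKN2B (3.69 CPM, log2 ratio 1.69), CCND1, a D-type cyclin that binds CDK4 (1757 CPM, 1.51), and CDKN1B, the inhibitor p27 (137 CPM, 1.25). In NGP CDKN1B was lower, at 24.2 CPM (log2 ratio -1.24), below the lowest other line at 29.9 CPM. CCND2, also listed, was not detected. CDKN2C, the CDK4 inhibitor p18, had 67.4 CPM in LS and 9.25 CPM in NGP, beside a median of 59.6 CPM and a lowest other line at 10.0 CPM. CDKN2D, the related inhibitor p19, had 4.9 CPM in LS and 7.24 CPM in NGP, both below the lowest other line at 7.44 CPM. Its LS log2 ratio of -1.27 became -0.65 with the GC and length trend removed, which no longer passed 2-fold. Of 16 E2F target genes, which CDK4 activity is known to raise, 0 were 2-fold higher or lower in LS or NGP, and the medians were -0.05 and -0.14. With the GC and length trend removed, CDT1 passed 2-fold in NGP, with a log2 ratio of 1.19 in place of 0.82. MCM4, a replication helicase subunit, had the highest log2 ratio in NGP, 0.84, and TK1, thymidine kinase, the lowest in LS, -0.89. The NGP level of MCM4, 434 CPM, lay above the highest other line at 381 CPM.

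In the 12 lines other than LS and NGP the 10 genes varied by 3.42-fold (CCT2) to 6.69-fold (NUP107) between the highest and the lowest line. Lan-6 was lowest for 6 of them: MDM2, NUP107, RAP1B, CPSF6, YEATS4 and FRS2. With the GC and length trend removed Lan-6 stayed lowest for NUP107 and YEATS4, and MDM2 in Lan-6 was 152 CPM in place of 71.1 CPM. NUP107 in Lan-6 was then 51.9 CPM in place of 25.8 CPM, and RAP1B 144 CPM in place of 56.5 CPM. CPSF6 in Lan-6 was 173 CPM in place of 73.1 CPM, when SK-N-SH was lowest at 139 CPM. FRS2 in Lan-6 was 35.8 CPM in place of 15.2 CPM, when GI-ME-N was lowest at 31.5 CPM. SK-N-SH was highest for MDM2 on both scales, at 318 and 395 CPM. On the deposited log2 scale GI-ME-N (13.27) and Lan-6 (12.91) lay above SK-N-SH (12.88). Across all 14 lines the 45 pairs of genes had a median Pearson r of 0.736 on log2 CPM, and all 45 were positive. The genes were chosen for being high in LS and NGP, so nothing is read from r values that take in these lines. Without LS and NGP the median was 0.178 and 29 pairs were positive, and with the trend also removed 0.0454 and 25. These r values describe lines that share a protocol and, in 2 pairs, an origin.

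**Figure D4:**
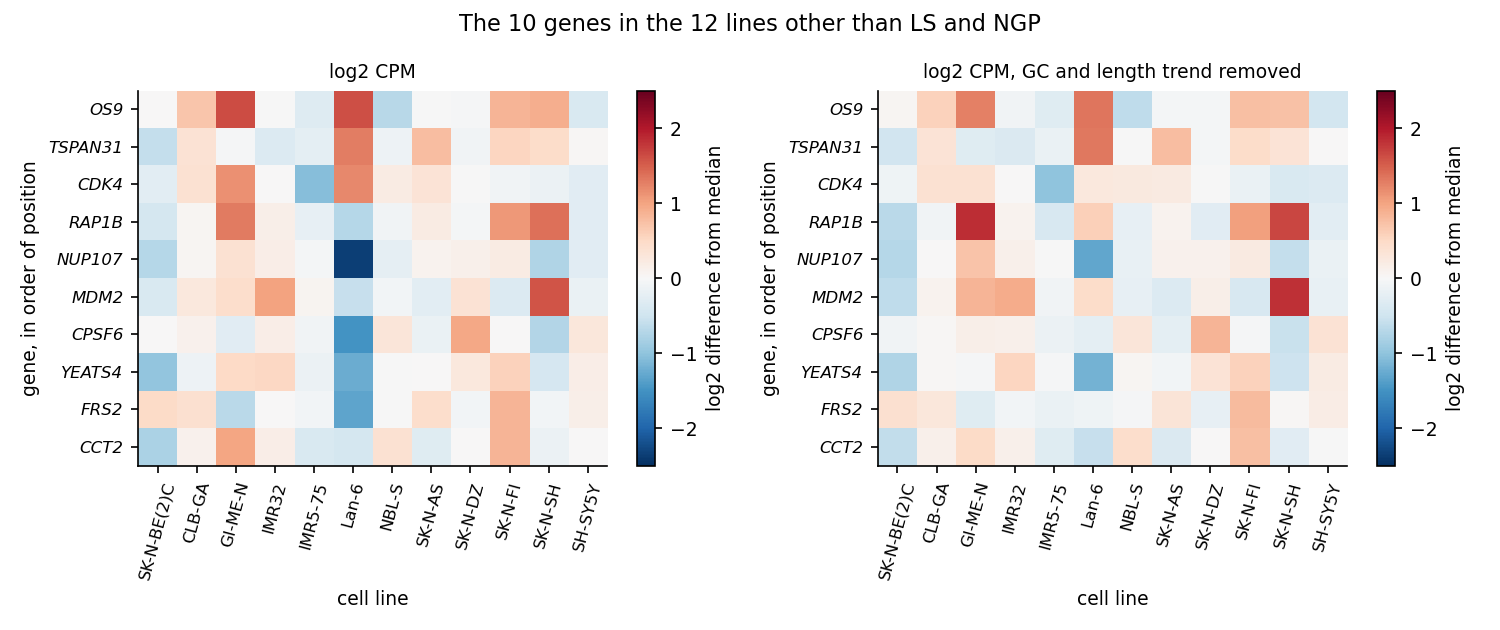
The 10 genes (rows, in order of position) in the 12 lines other than LS and NGP (columns), as the log2 difference from the median of the 12 lines. Left, log2 CPM. Right, the same with the GC and length trend removed, where the low values of Lan-6 for MDM2, CPSF6 and FRS2 are smaller or gone and MDM2 stays highest in SK-N-SH.

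The genes most like MDM2 over the 14 lines, among 12534 genes of at least 5 CPM on average, were AC025423.2 (r 0.965), YEATS4 (0.930), CNOT2 (0.925), CCT2 (0.915) and C1GALT1P1 (0.913). Those most like CDK4 were METTL1 (0.935), TSFM (0.904), TSPAN31 (0.891), AVIL (0.865) and EEF1AKMT3 (0.848). All 10 lie on chromosome 12, and these r values take in LS and NGP. MDM2, CDK4, YEATS4, CCT2 and TSPAN31 were themselves chosen for being high in LS and NGP, so high r values among them follow from that choice. Over the 12 lines without LS and NGP, AC025423.2 kept an r of 0.854 with MDM2 and was the 1 gene of the 10 still among the 5 most alike. Since AC025423.2 lies within MDM2 exons on the same strand, this likeness cannot be separated from shared reads.

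Whether other genes follow MDM2 outside LS and NGP was tested in 10 lines, without the subclones IMR5-75 and SH-SY5Y. The slope is the log2 change per SD of log2 CPM of MDM2, from edgeR's quasi-likelihood test with Benjamini-Hochberg adjustment over 15263 genes. DESeq2 called 345 genes at an adjusted p of 0.05. On the deposited log2 values, with MDM2 also on that scale, limma called 1 and had 3051 at an unadjusted p under 0.05. By edgeR 0 genes passed an adjusted p of 0.05 (0.0%) and 1025 had an unadjusted p under 0.05. Of 29 p53 target genes 26 had a positive slope, as did 47.2% of all genes, and for 11 it had an unadjusted p under 0.05, where 3.83% of all genes did. None of the 29 had a negative slope at that level, where 2.89% did. None passed the adjustment in edgeR, and DESeq2 called 2 rising, where 1.36% of all genes were called. DRAM1, which acts in autophagy, had a slope of 1.57 ± 0.29 (SE, adjusted p = 0.186), and the death receptor gene FAS 1.33 ± 0.25 (SE, adjusted p = 0.187). EDA2R, a death receptor of the same family, had the steepest slope, 1.83 ± 0.69 (SE, adjusted p = 0.701). These 3 were chosen after their values were seen. CDKN1A had a slope of 0.55, and 1.55 with the GC and length trend removed.

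The count of p53 targets at an unadjusted p under 0.05 leaned on SK-N-SH, of the lines fitted the highest for MDM2 in CPM. Without it 6 of the 29 had such a positive slope by edgeR, where 3.0% of all genes did, and over the other lines left out in turn the count reached at most 14, without Lan-6. With the trend removed 15 of 29 did by limma, where 4.41% of all genes did. Without GI-ME-N and Lan-6, an alternative chosen after the data were seen, 16 did by edgeR, where 4.71% of all genes did. All 6 mesenchymal markers had a positive slope (median 1.47), as did 47.2% of all genes. By edgeR 1 of them had an unadjusted p under 0.05, where 3.83% of all genes did. This was PRRX1, a transcription factor gene, with a slope of 3.54 ± 0.72 (SE, edgeR adjusted p = 0.234). With the trend removed 3 of the 6 had such a slope by limma, where 4.41% of all genes did. DESeq2 called 2 rising, where 1.36% of all genes were called. With a line left out in turn the edgeR count ran from 1 to 4, the highest without IMR32. All 6 adrenergic markers had a negative slope (median -0.71), 1 with an unadjusted p under 0.05, where 2.89% did. The part of both marker lists in the p53 result was not tested. Of the 9 other genes of 12q14-15, 0 had an unadjusted p under 0.05 by edgeR, and with the trend removed RAP1B did by limma (slope 0.57).

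**Figure D5:**
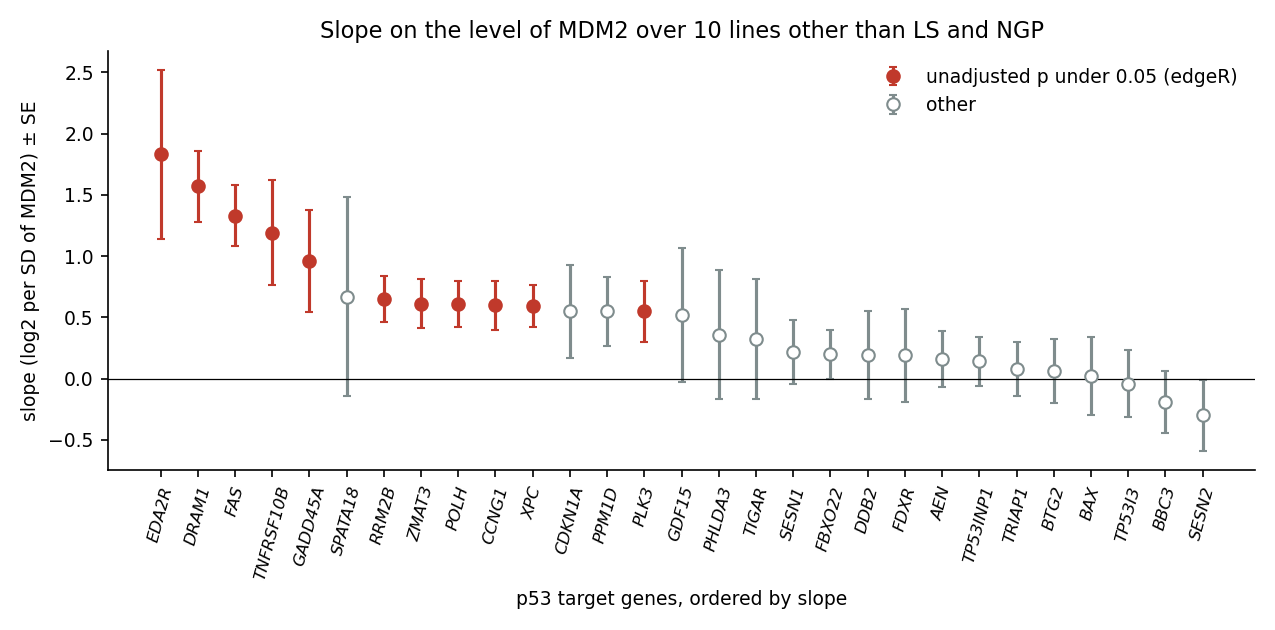
Slope on the level of MDM2 (log2 per SD) with its SE for 29 p53 target genes over 10 lines without LS and NGP, ordered by slope. Filled points had an unadjusted p under 0.05. EDA2R, DRAM1 and FAS lie highest, and 26 of 29 slopes are above 0.

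The same test on CDK4 called 138 genes (0.904% of 15263), 124 rising and 14 falling, but this did not hold. With the GC and length trend removed 0 genes passed by limma, with 558 at an unadjusted p under 0.05. Without GI-ME-N and Lan-6, 0 passed by edgeR, with 717 at an unadjusted p under 0.05, and DESeq2 on the 10 lines called 1987. Leaving out SK-N-SH gave 1132 calls, leaving out Lan-6 gave 1, and leaving out any of the other 8 lines in turn gave 0. CDK4 was highest in Lan-6 and GI-ME-N among the lines fitted. The steepest called genes were HSPB6, AC011511.4, MROH6, MVK and UPK3BL1 rising and LMTK3, NCOA7, TRIM9, ATM and FAM76B falling. ATM, the kinase that signals DNA breaks to p53, had a slope of -1.11 ± 0.18 (SE, edgeR adjusted p = 0.046), and -0.53 with the trend removed. Of 16 E2F target genes 13 had a positive slope, as did 47.1% of all genes, and for 5 it had an unadjusted p under 0.05, where 13.3% of all genes did. None had a negative slope at that level, where 8.73% did. By edgeR 0 of the 16 passed the adjustment and by DESeq2 2 did, where 6.58% of all genes were called rising. With the trend removed 5 of 16 had such a positive slope by limma, where 1.42% did, and without GI-ME-N and Lan-6 0 of 16 by edgeR, where 1.86% did. With a line left out in turn the count ran between 1, without GI-ME-N, and 7, without Lan-6. TK1 had a slope of 1.03 ± 0.21 (SE, edgeR adjusted p = 0.0518), and 0.21 with the trend removed.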

How the data were processed

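Per the labels' protocols, total RNA was isolated with TRIzol and libraries were built by the TruSeq protocol. Per the submitters' processing notes, GRCh38, DESeq2 1.48.2 and kallisto 0.44.0 were used, with no roles stated. The annotation behind the counts is not given in these sources. The authors deposited estimated counts per gene, used here, and log2 variance-stabilised values, used as an alternative. Counts were scaled by TMM (edgeR 4.0.16) and given as CPM and as log2 CPM with a prior count of 2. A gene was detected at 1 CPM or more in at least 1 line. Positions came from GENCODE 29 (98.9% of symbols matched). The GC and length trend was fitted with splines over 8582 stable genes in each library. Slopes were fitted with edgeR on genes of at least 1 CPM in 3 lines, with DESeq2 1.42.0 and limma 3.58.1 as alternatives. On simulated data (15263 genes each, 50 given each slope) a slope of 2 was recovered for 74% of its genes with MDM2 and 72% with CDK4, a slope of 1 for 24% and 26%, a slope of -2 for 62% and 64%, and a slope of -1 for 6% with each. The members and the gene lists were chosen with earlier results of these data known. Named genes were all 10 members, the extremes of each list, the ends of runs with their highest genes, the 5 most alike in pattern and the steepest called; others named for their values were chosen after those were seen. The summed level of the neuroblastoma marker list is not reported here.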

Additional observations from a re-analysis of the deposited data

How the results depend on the processing

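The sign of the log2 ratio of the 10 genes was kept in 70 of 70 alternative values for LS and 70 of 70 for NGP, and the largest shift was CPSF6 on the deposited values, 5.71 against 6.23 in LS. The genes in runs near the 10 genes numbered 35 to 40 in LS (37 as reported) and 26 to 29 in NGP (29). Genes that follow MDM2 numbered 0 as reported, 345 by DESeq2, 1 by limma on the deposited values, 1 with no filter on low counts, and 0 to 4 with a line left out in turn. Genes that follow CDK4 numbered 138 as reported, 559 with DESeq2 size factors, 1987 by DESeq2, 0 by limma on the deposited values, 68 with no filter, 608 with the subclones included, 0 with the GC and length trend removed, 0 without GI-ME-N and Lan-6, and 0 to 1132 with a line left out in turn. The cause was not tested. No paired analysis was possible because each line gave a single library. Intervals cover counting error only.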

Other observations

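On the deposited log2 scale MDM2 stood at 16.95 in LS and 14.88 in NGP, against 13.27 in GI-ME-N, 12.91 in Lan-6 and 12.88 in SK-N-SH, so that the order of the last 3 differed from that in CPM (144, 71.1 and 318 CPM).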
